A study of Homo sapiens with 6 samples.

Results

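The profile across transcription start sites (TSS) is chromatin signal, taken as summed over genes, at 6000 positions, 3000 on either side of the TSS. Its members are all of the TSS positions of the deposited profile table, which holds 12000 positions in each of 6 libraries when those around termination sites are counted. The study profiled wild-type MRC5, a human lung fibroblast line, by chromatin immunoprecipitation with sequencing (ChIP-seq). The 4 groups, all untreated as far as the labels say, were ChIP with an antibody to NuMA (2 libraries), ChIP with non-specific immunoglobulin G (IgG, 2 libraries), the input chromatin of the NuMA arm (1 library) and the input chromatin of the IgG arm (1 library). The labels do not say that replicates came from separate cultures, so their spread may be technical, and chromatin signal does not measure expression, so the cell type was not checked against its markers. The comparison asks where in the genome NuMA is found, and the file gives positions without a size in bases, so distances are given here in positions.

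NuMA is a large nuclear protein known for gathering microtubules at the poles of the mitotic spindle. It is nuclear between divisions. A TSS is the base at which RNA polymerase II begins a transcript. Around it lies the promoter, where general factors assemble on open chromatin flanked by positioned nucleosomes, and in mammals many promoters lie in CpG islands, stretches rich in the dinucleotide CpG. Others hold few CpG and may carry a TATA box just upstream of the start. Open chromatin shears and is recovered differently from closed chromatin, which is why input and IgG profiles are read beside a ChIP profile.

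Promoters differed in sequence, and NuMA and IgG counts divided along that difference, so 5 promoters are shown. They were chosen after their values were seen, as examples with a window that overlaps no other and a RefSeq start within 13 bases of the window's centre. Each line gives the 200 bases before the RefSeq start (build GRCh38.p14), 5′ to 3′. Capitals mark CpG, the TATA motif TATAAA and the GC box GGGCGG, on either strand.
EN2 at chr7:155457929-155458128, plus strand: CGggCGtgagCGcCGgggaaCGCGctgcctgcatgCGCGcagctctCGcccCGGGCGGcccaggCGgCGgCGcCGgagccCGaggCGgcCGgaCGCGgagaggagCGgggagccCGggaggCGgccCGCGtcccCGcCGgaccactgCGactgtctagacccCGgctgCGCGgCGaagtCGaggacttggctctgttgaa
PARP1 at chr1:226408094-226408293, minus strand: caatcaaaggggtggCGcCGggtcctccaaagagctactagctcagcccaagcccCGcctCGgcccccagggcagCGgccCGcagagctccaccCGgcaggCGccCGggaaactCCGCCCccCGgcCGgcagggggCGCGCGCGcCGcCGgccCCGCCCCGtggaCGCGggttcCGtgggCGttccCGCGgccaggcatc
FOSB at chr19:45467796-45467995, plus strand: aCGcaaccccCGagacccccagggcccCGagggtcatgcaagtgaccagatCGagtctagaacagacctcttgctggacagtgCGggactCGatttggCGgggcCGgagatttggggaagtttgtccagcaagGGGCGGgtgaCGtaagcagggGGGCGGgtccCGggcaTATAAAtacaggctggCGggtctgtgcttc
OR10A4 at chr11:6876425-6876624, plus strand: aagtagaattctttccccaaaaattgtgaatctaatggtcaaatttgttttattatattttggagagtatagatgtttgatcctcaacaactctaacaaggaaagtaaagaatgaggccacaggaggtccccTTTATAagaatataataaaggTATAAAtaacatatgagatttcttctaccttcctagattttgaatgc
KRT40 at chr17:40987136-40987335, minus strand: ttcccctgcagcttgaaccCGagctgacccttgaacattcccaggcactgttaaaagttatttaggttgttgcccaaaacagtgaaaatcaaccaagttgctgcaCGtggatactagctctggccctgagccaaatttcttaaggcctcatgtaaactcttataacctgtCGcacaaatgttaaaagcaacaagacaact
The printed stretches hold 33 CpG in EN2, 26 in PARP1 and 13 in FOSB, against 0 in OR10A4 and 3 in KRT40. Their GC content is 78% in EN2 and in PARP1, 62.5% in FOSB, 31% in OR10A4 and 44% in KRT40.

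The libraries were uneven in flank signal and in promoter counts. Signal at the outermost 500 positions of each end, the level each library was divided by, was 16499 to 31297 units, lowest in the NuMA libraries. Neighbouring positions differed by a median of 0.050% to 0.085% of that level, so positions are not independent values. Counts in the promoter table totalled 366594 (IgG replicate 2) to 1080879 (NuMA replicate 1). Flank signal and promoter counts did not rank the libraries alike, and neither gives sequencing depth. Every comparison of NuMA with IgG sets 2 libraries against 2, for which the exact two-sided permutation test has 6 arrangements and cannot give a p below 0.333.

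Signal rose around the TSS in all 6 libraries, most in NuMA ChIP, and the rise faded into the flanks within about 2000 positions on both sides. Averaged over 25 positions to each side, both NuMA profiles exceeded both IgG profiles at 4322 of the 6000 positions (72.0%), of which 4164 formed an unbroken run from position -1973 to 2190. They lay above both inputs at 3885 positions, with the longest run from -1654 to 1599. Both IgG libraries lay below both inputs at 4701 positions, with the longest run from -2482 to 137, and above both inputs at 90 positions.

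**Figure D1:**
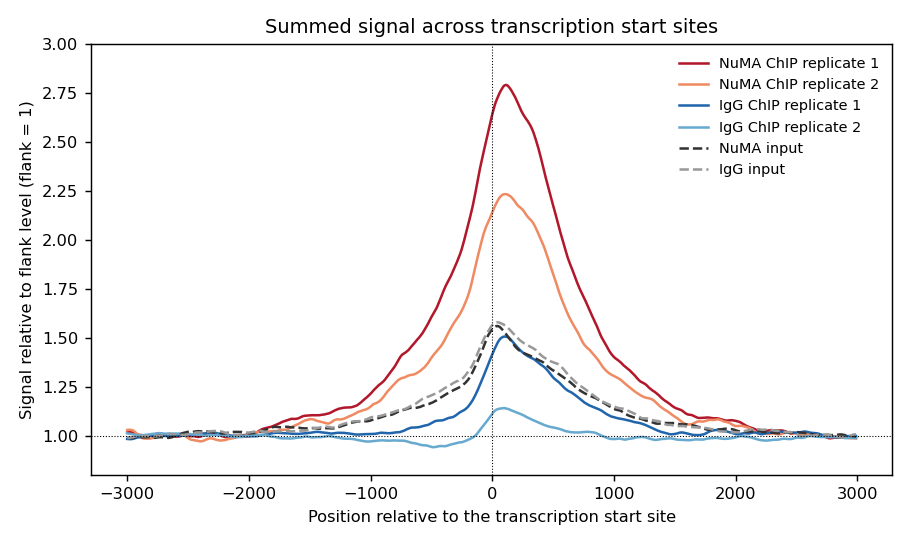
Signal relative to each library's flank level (vertical axis, flank = 1) against position relative to the TSS (horizontal axis, positions). Each line is 1 library averaged over 25 positions to each side, dashed for inputs. The NuMA ChIP lines reach 2.79 and 2.23, the inputs 1.56 and 1.58, and the IgG ChIP lines 1.51 and 1.14.

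The level within 500 positions of the TSS was 2.31 and 1.91 times the flank in NuMA replicates 1 and 2. It was 1.29 and 1.04 in IgG replicates 1 and 2, 1.37 in input of the NuMA arm and 1.41 in that of the IgG arm. The ChIP groups did not overlap, and the inputs lay between them. The difference was 0.940, from a NuMA mean of 2.11 ± 0.29 and an IgG mean of 1.17 ± 0.18 (SD, n = 2 each, exact permutation p = 0.333). Of 12 stretches of 500 positions, both NuMA libraries exceeded both IgG libraries in 9. The exceptions were the 2 outermost, which set the scale, and positions -2500 to -2001, where NuMA stood at 0.998 and 0.984 and IgG at 1.006 and 1.0001.

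Going towards the TSS, the NuMA level climbed from 1.14 and 1.09 at positions -1500 to -1001 to 1.39 and 1.27 at -1000 to -501 and 2.03 and 1.70 at -500 to -1. Past the TSS it was 2.59 and 2.11 over the first 500 positions, 1.73 and 1.51 over the next 500 and 1.27 and 1.20 over positions 1000 to 1499. Replicate 1 stood above replicate 2 in each of these stretches. IgG replicate 1 stood at 1.16 before the TSS and 1.42 after it. IgG replicate 2 stayed at 0.97 over positions -1000 to -501 and 0.99 over -500 to -1, and reached 1.099 over the first 500 downstream. Its lowest averaged value, 0.941, lay at position -485, and 4039 of its 6000 positions lay below its own flank level. The other 5 libraries had their lowest value more than 2000 positions from the TSS.

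The broad shoulders of the profile were small beside the summit. Between 1000 and 2500 positions downstream the level was 1.133 and 1.098 with NuMA antibody and 1.027 and 0.984 with IgG, and 1.05 in each input. Upstream, over the same distances, it was 1.065 and 1.037 with NuMA antibody, 1.009 and 0.993 with IgG, and 1.035 and 1.031 in input of the NuMA and IgG arms. The NuMA libraries were the higher in both places (exact permutation p = 0.333 for each), and from 1500 positions outwards the differences shrank from 0.110 to 0.057 downstream and from 0.050 to 0.017 upstream. The last 500 positions stood at 0.984 to 1.01 times the first 500 in all 6 libraries, so the outer ends used for scaling were nearly level. The mean of this ratio differed by -0.001 between NuMA and IgG ChIP (exact permutation p = 1). That test compares the groups and does not ask whether the ends are level.

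NuMA replicates 1 and 2 differed in height and hardly in shape. Within 1000 positions of the TSS the excess of replicate 1 over its flank was 1.44 times that of replicate 2, and after that multiplication the remaining difference was 2.26% of the replicate 1 excess, by root mean square. Setting NuMA replicate 1 against the inputs in the same way left 9.03% for the NuMA input and 7.01% for the IgG input. Against IgG replicate 1 it left 23.7%, and against IgG replicate 2 it left 77.9%. The inputs left 4.08% between each other and the IgG libraries 62.3%. These residuals are descriptions over positions that share fragments, with no test.

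The shape on the upstream side set the IgG libraries apart. With each summit's excess set to 100%, positions -400 to -301 stood at 44.9% and 43.4% in the NuMA libraries and at 39.5% and 44.3% in input of the NuMA and IgG arms. They stood at 17.8% in IgG replicate 1 and -34.2% in IgG replicate 2. On the other side of the TSS, at positions 200 to 299, the NuMA libraries stood at 92.1% and 93.2%, the inputs at 76.1% and 82.6%, IgG replicate 1 at 84.3% and IgG replicate 2 at 74.8%. Nearer the TSS, positions -200 to -101 stood at 67.4% and 67.3% in the NuMA libraries and 60.6% and 65.5% in input of the NuMA and IgG arms. Over positions -100 to -1 the inputs were the higher, at 86.4% and 88.6% against 83.9% and 86.0%. Upstream, then, NuMA ChIP was closer in relative shape to input than to IgG ChIP, without being the same. Just downstream, at positions 200 to 299, NuMA ChIP held more of its excess than input did, and IgG replicate 1 did so to a smaller extent. By positions 500 to 599 the NuMA libraries (59.4% and 59.7%) and the inputs (56.0% and 61.9%) were close again.

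**Figure D2:**
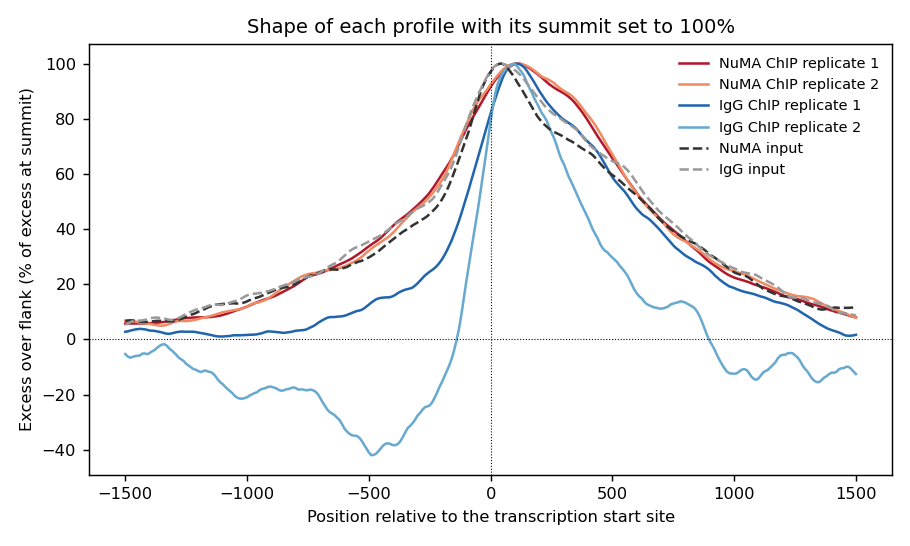
Excess over the flank as a percentage of the excess at the library's own summit (vertical axis) against position relative to the TSS (horizontal axis, positions), 1 line per library. The NuMA lines run together, and upstream the inputs lie nearer to them than the IgG lines do. The inputs drop sooner after the TSS, and IgG replicate 2 falls below its flank upstream.

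The summit lay at positions 114 and 108 with NuMA antibody, 105 and 96 with IgG, 41 in input of the NuMA arm and 42 in that of the IgG arm. All 4 ChIP libraries thus had their summit further downstream than either input. The NuMA and IgG positions differed by 10.5 (exact permutation p = 0.333), a value that was 6 without IgG replicate 2. Averaging over 10 positions to each side gave a difference of 7, and over 50 it gave 15.5 (exact permutation p = 0.667). At both of these averaging widths the ChIP groups were no longer fully apart in summit position. The zone above 50% of the summit's excess was 913 and 894 positions wide in NuMA ChIP, 683 and 415 with IgG, 832 in input of the NuMA arm and 908 in that of the IgG arm. NuMA zones ran from -284 to 628 and from -269 to 624, which is 398 and 377 positions before the summit and 514 and 516 after it. IgG zones began at -104 and -47. The width difference of 354.5 positions between the groups (exact permutation p = 0.333) was 220.5 without IgG replicate 2. A width is a share of the library's own summit, so it does not carry the difference in height.

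Signal leaned downstream in every library. The 500 positions after the TSS held 1.28 and 1.24 times the signal of the 500 before it in NuMA ChIP, 1.22 and 1.11 with IgG, and 1.11 in each input. The group difference of 0.092 (exact permutation p = 0.333) rested in part on IgG replicate 2 and was 0.039 without it, and 0.146 without IgG replicate 1. With 250 positions to each side it was 0.033. Summed over 1000 positions to each side, the excess over the flank was 1873 and 1294 with NuMA antibody, 398 and 33.0 with IgG, 547 in input of the NuMA arm and 603 in that of the IgG arm, in units of the flank level at 1 position. Of this excess 62.1% and 62.5% lay downstream in the NuMA libraries, 61.6% and 61.0% in input of the NuMA and IgG arms and 75.9% in IgG replicate 1. In IgG replicate 2 the downstream part was 171% of the total, because its upstream part was negative.

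A dip or a nucleosome ripple was not resolved by the measures used here. The lowest averaged value from 200 positions upstream to 50 downstream was 0.853 and 0.868 times the mean of the highest values on either side in NuMA ChIP, 0.865 and 0.923 with IgG, and 0.904 and 0.913 in input of the NuMA and IgG arms (exact permutation p = 0.667). That ratio reflects the slope up to the summit, because the averaged profiles rose through the TSS. Fine structure was taken as the averaged profile minus a broader average over 200 positions to each side. Downstream its SD was 2.19% and 1.74% of the mean in NuMA ChIP and 1.68% and 0.984% with IgG (exact permutation p = 0.333). In input of the NuMA and IgG arms it was 1.45% and 1.20%. This SD takes in the curve of the summit, so it does not measure fine structure alone. The self-correlation of fine structure was highest at the shortest lag looked at, 120 positions, in all 6 libraries and on both sides of the TSS. Only the highest value was taken, so a weaker local peak at a longer lag, up to 250 positions, was not looked for. Whether a repeat is present is therefore not settled.

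Each ChIP profile was divided by the input of its own arm, and the 2 arms moved in opposite directions. NuMA replicate 1 reached 1.88 times its input at position 194, and NuMA replicate 2 reached 1.51 times at position 239. At the input's own summit the ratios were lower, 1.75 and 1.41, so the largest gain over input lay downstream of where input peaked. IgG replicate 1 fell to 0.864 times its input at position -319 and IgG replicate 2 to 0.705 at position -55. Within 500 positions of the TSS the ratio to own input was 1.69 and 1.39 with NuMA antibody and 0.918 and 0.740 with IgG, a difference of 0.709 (exact permutation p = 0.333). Each arm has 1 input library, which serves both replicates, so the error of the input is not known.

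**Figure D3:**
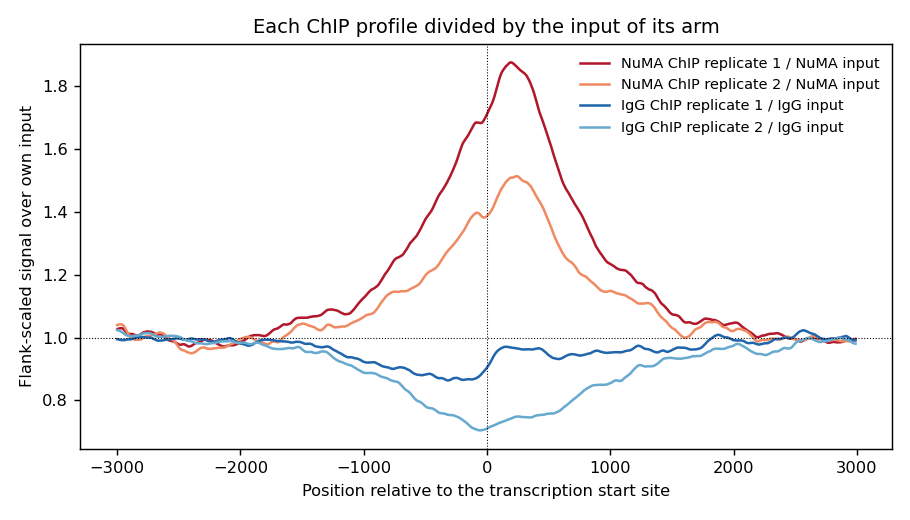
Flank-scaled signal of each ChIP library over the input of its arm (vertical axis, 1 = equal to input) against position relative to the TSS (horizontal axis, positions). The NuMA lines peak at 1.88 and 1.51 downstream of the TSS, and the IgG lines dip to 0.864 and 0.705 upstream of it.

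The promoter count table divides signal near the TSS by gene, although no source used here states that the profile summed the same genes. It counts reads in 19957 windows that reach 1000 bases to each side of a TSS. RefSeq promoter sequences (build GRCh38.p14), from 250 bases before the start to 50 after it, were matched by strand and position to 13517 windows (67.7%), at a median distance of 35 bases. Windows shifted by 20000 bases matched in 2.24% of cases. A promoter was classed as high in CpG when it held at least 0.75 of the CpG that its C and G content predicts and at least 55% GC, as low when it held under 0.48 of the predicted CpG, and otherwise as intermediate. High-CpG promoters made up 51.3% of the matched windows, intermediate ones 23.7% and low-CpG ones the remaining 3378 windows. GC content rose towards the start, from 63.5% at bases -250 to -201 to 73.1% at -50 to -1 in the high class and from 46.8% to 52.0% in the low class. The GC box GGGCGG stood in 82.9% of high-CpG and 17.6% of low-CpG promoters (56.3% of all 22198 RefSeq protein-coding promoters). The motif TATAAA stood in 3.58% of high-CpG and 21.1% of low-CpG promoters (9.47% of all). A match to letters is no evidence of a bound factor.

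NuMA counts lay mostly in high-CpG promoters, and IgG counts leaned the other way from input. High-CpG promoters held 65.1% and 61.8% of matched counts with NuMA antibody, 47.6% and 44.6% with IgG, 55.1% in input of the NuMA arm (95% Wilson interval 54.98% to 55.26%) and 55.7% in that of the IgG arm (55.54% to 55.80%). Low-CpG promoters held 11.1% and 14.3% with NuMA antibody, 28.9% and 32.7% with IgG, 21.4% in input of the NuMA arm (21.3% to 21.6%) and 21.2% in that of the IgG arm (21.1% to 21.3%). Those intervals cover counting error only, since reads copied by PCR are not independent molecules. The inputs lay between the ChIP groups in both classes, and the ChIP groups did not overlap. Mean counts per high-CpG window were 2.85 and 2.11 times those per low-CpG window in NuMA ChIP, 0.802 and 0.663 with IgG, 1.25 in input of the NuMA arm and 1.28 in that of the IgG arm (difference between ChIP groups 1.75, exact permutation p = 0.333). Because this ratio is taken within a library, it does not depend on how libraries are scaled. It takes in windows that overlap another, which hold few counts. Without those windows the mean ratio was 3.05 in NuMA ChIP and 0.884 with IgG, against 2.48 and 0.733 with them.

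NuMA ChIP, input and IgG ChIP kept the same order along GC content itself, in 5 equal groups of matched windows. This division was added after the data were seen. From the group with the least GC to that with the most, mean counts relative to the library's mean rose from 0.367 to 1.92 in NuMA replicate 1 and from 0.453 to 1.70 in NuMA replicate 2. They rose from 0.644 to 1.22 in input of the NuMA arm and from 0.589 to 1.29 in that of the IgG arm. IgG replicate 1 rose from 0.790 to 1.14, unlike its CpG classes, where the high-CpG mean was 0.802 times the low-CpG mean. IgG replicate 2 fell from 1.15 to 0.972, with its lowest value, 0.927, in the middle group. Input counts thus moved with GC content too, and the part that recovery of GC-rich fragments has in the ChIP differences was not tested.

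**Figure D4:**
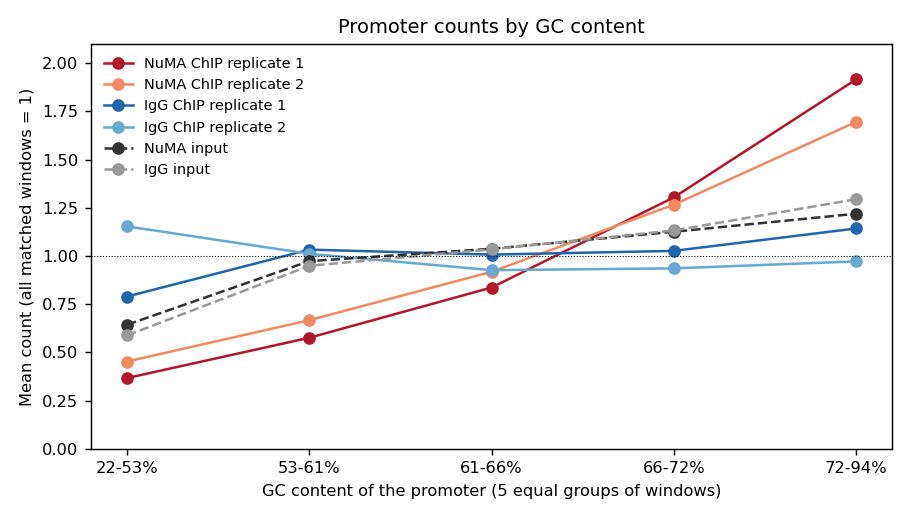
Mean promoter count of each library relative to its mean over all matched windows (vertical axis) in 5 equal groups of windows by GC content of the promoter (horizontal axis, percent GC). The NuMA lines climb from 0.367 and 0.453 to 1.92 and 1.70, more steeply than the inputs, and the IgG lines are flatter than the inputs.

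Window by window, high-CpG promoters were more often higher and low-CpG promoters more often lower in NuMA ChIP than in IgG ChIP. An edgeR quasi-likelihood test on the raw counts, with Benjamini-Hochberg adjustment over 15727 windows and a threshold of 0.05, called 16.8% of all windows higher and 23.9% lower, with a median log2 fold change of -0.04. Of 5377 high-CpG windows tested, 1472 (27.4%) were higher and 202 (3.76%) lower, with a median of 0.62. Of 2489 intermediate windows, 359 (14.4%) were higher and 295 (11.9%) lower, with a median of 0.10. Of 2707 low-CpG windows, 59 (2.18%) were higher and 1568 (57.9%) lower, with a median of -1.63. These directions are relative to other promoters, because scaling was on promoter counts. Scaling on the flank of the TSS profile instead moved the median of all windows to 1.25 and made 94.6% of calls higher in place of 41.2%. On that scale 3924 high-CpG windows were higher and 9 lower (median 1.92), and 342 low-CpG windows were higher and 239 lower (median -0.32), so the direction for the low-CpG class depends on the scale and the order of the classes did not change. Without NuMA replicate 1 fewer windows were called, with medians of 0.51 for high-CpG and -1.43 for low-CpG windows (-0.11 over all windows). Without IgG replicate 2 fewer were called too, with medians of 0.66 and -1.38 (0.05 over all windows). In DESeq2, 861 high-CpG windows (16.0%) were higher and 978 low-CpG windows (36.1%) lower, against 10.4% and 13.5% of all windows.

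**Figure D5:**
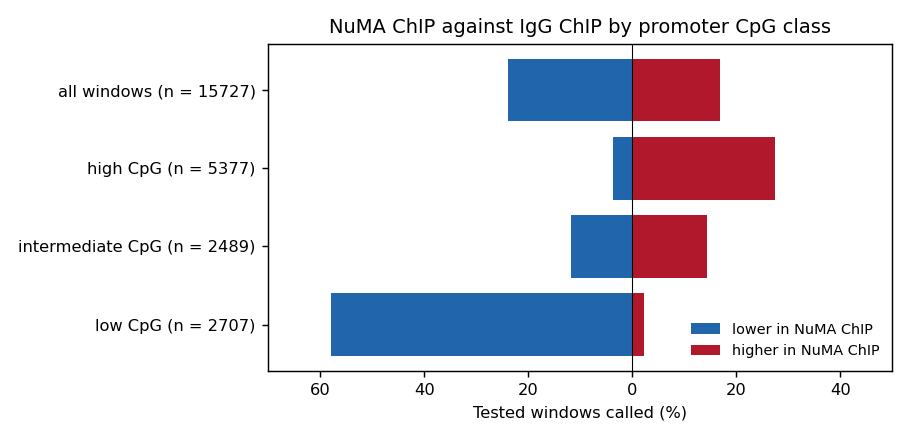
Percentage of tested windows called lower (blue, to the left) or higher (red, to the right) in NuMA ChIP than in IgG ChIP, for all windows and for each CpG class, with the number tested beside each name. High-CpG windows were called higher in 27.4% and low-CpG windows lower in 57.9%.

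Medians for windows with and without a GC box differed inside the classes, and those for the TATA motif were close. Among high-CpG windows, those with GGGCGG had a median log2 fold change of 0.68, with 1321 of 4522 higher, and those without it 0.28, with 151 of 855 higher. Among low-CpG windows the medians were -1.21 with the motif and -1.72 without it. Within the high class, mean counts with the motif over those without it were 1.43 and 1.33 with NuMA antibody, 1.14 and 1.06 with IgG, 1.11 in input of the NuMA arm and 1.16 in that of the IgG arm. For TATAAA the medians were 0.65 with and 0.62 without it in the high class, and -1.65 and -1.62 in the low class. Mean counts with TATAAA over those without it, within the low class, were 0.635 and 0.711 with NuMA antibody, 0.724 and 0.954 with IgG, and 0.692 and 0.657 in input of the NuMA and IgG arms (exact permutation p = 0.333). Promoters with TATAAA taken without regard to class had a median of -0.97, against 0.20 for the rest. GGGCGG itself contains a CpG, so the motif is not independent of the classes.

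Among the promoters shown above, EN2, a homeobox regulator of the midbrain and hindbrain, had 485 and 195 counts in NuMA ChIP, 98 and 38 with IgG, 78 in input of the NuMA arm and 74 in that of the IgG arm. In CPM (counts scaled to the library total) these were 449 and 294, 159 and 104, and 107 and 93.5, so both NuMA libraries exceeded the others. Its log2 fold change was 1.69 ± 0.62 (SE, edgeR adjusted p = 0.0258), a call lost on leaving out NuMA replicate 1 (1.20, adjusted p = 0.0721), IgG replicate 1 (2.24, 0.166) or IgG replicate 2 (1.48, 0.33), and was 2.95 on flank scaling. PARP1, which encodes the sensor of DNA strand breaks that makes poly(ADP-ribose), is as GC-rich upstream but had 43 and 50 NuMA counts, 19 and 14 IgG counts, and 67 and 60 in input of the NuMA and IgG arms. It did not pass (0.87 ± 0.48, SE, adjusted p = 0.128) except on flank scaling (2.18, adjusted p = 0.0013), and its value was 0.55 without NuMA replicate 2. FOSB, an AP-1 subunit of the immediate early response, is a high-CpG promoter with a TATAAA motif 30 bases before the start, and went against its class. It had 18 and 30 NuMA counts, 59 and 28 IgG counts, and 67 and 97 in input of the NuMA and IgG arms.

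In CPM, FOSB stood at 16.7 and 45.2 with NuMA antibody and 95.7 and 76.4 with IgG, without overlap. It was lower in NuMA ChIP by -1.41 ± 0.44 on the log2 scale (SE, edgeR adjusted p = 0.0087), a call lost in DESeq2 (adjusted p = 0.0964), on flank scaling (-0.13, adjusted p = 0.864), without NuMA replicate 1 (-0.88, adjusted p = 0.252) and without IgG replicate 1 (-0.996, adjusted p = 0.17). The low-CpG promoter of OR10A4, an odorant receptor, had 6 and 6 NuMA counts, 36 and 38 IgG counts, and 32 and 22 in input of the NuMA and IgG arms. Both NuMA libraries lay under every other library, at -3.30 ± 0.61 (SE, edgeR adjusted p = 2.45e-05), and the call held in all 10 alternatives run for it, with the smallest difference on flank scaling (-1.95, adjusted p = 0.011). KRT40, a hair keratin, had 0 counts in both NuMA libraries, 21 and 8 with IgG and 14 in each input. Against a floor of 3 counts, taken over both NuMA libraries together, it was 17.2-fold lower in NuMA ChIP than in IgG ChIP. That fold rests on total promoter counts as the scale and takes the IgG counts without error, so it is no lower bound. The edgeR call (adjusted p = 0.000231) was lost when NuMA replicate 1 was left out (log2 fold change -6.94). Without IgG replicate 1 KRT40 was not tested.

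Genes of a short list, active in most cells, in fibroblasts or in other tissues, were looked up next. GAPDH, a glycolytic enzyme (window chr12:6532926-6534926 on hg38, centred 591 bases from the RefSeq 5′ end), had 45 and 33 NuMA counts, 35 and 30 IgG counts, and 94 and 76 in input of the NuMA and IgG arms, and did not pass (-0.42 ± 0.42, SE, edgeR adjusted p = 0.417, and -0.08 without IgG replicate 2). COL1A1, which encodes a chain of fibrillar collagen (chr17:50200633-50202633), had 25 and 37 NuMA counts, 64 and 28 IgG counts, and 124 and 127 in the inputs. In CPM the groups did not overlap (23.1 and 55.7 against 104 and 76.4). It was lower in NuMA ChIP by -1.11 ± 0.41 (SE, edgeR adjusted p = 0.0259), a call lost in DESeq2 (adjusted p = 0.172), on flank scaling (0.15, adjusted p = 0.841), without NuMA replicate 1 (-0.65, adjusted p = 0.393) and without IgG replicate 1 (-0.64, adjusted p = 0.341).

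The windows of POLR2A and NUMA1 had too few counts to test. POLR2A, the largest subunit of RNA polymerase II, had 0 NuMA and 3 IgG counts, and NUMA1 itself 1 NuMA and 9 IgG counts. The POLR2A and NUMA1 windows overlap another window. Over the table, the 3741 overlapping windows held a median of 13 counts summed over the 6 libraries and the rest 224, so low counts there cannot be read as low signal. Leaving out overlapping windows gave 1424 higher (28.0%) and 176 lower (3.46%) among 5082 high-CpG windows. Among 2627 low-CpG windows 57 (2.17%) were higher and 1549 (59.0%) lower, against 17.1% and 24.6% of all windows tested. No window near the start of ACTB, ALB or HBB was analysed here.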

How the data were processed

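ChIP-seq signal from 6 MRC5 libraries was analysed. BWA (0.7.17-r1188), MACS2, featureCounts, bedtools and build hg38 are listed in the submitters' processing notes, with no role. The deposited profile was read as unscaled coverage summed over genes, from a value column named only none. The columns of the deposited promoter table are named as counts and were taken as raw counts. Each profile was divided by the mean of the outermost 500 positions of both ends, summits were read after averaging over 51 positions, and measures were compared by an exact two-sided permutation test, adjusted over 15 measures (adjusted p = 0.385 where p = 0.333, 0.714 for the dip and 1 for the flank ratio). For counts, the quasi-likelihood F-test of edgeR 4.0.16 (R 4.3.3) followed TMM scaling and filterByExpr (minimum count 10), with SE from the fold change and F, and with DESeq2 1.42.0 as an alternative. Windows took a class from a RefSeq start within 1000 bases on the same strand. Named genes were a fixed list (ACTB, GAPDH, POLR2A, NUMA1, COL1A1, ALB, HBB and others that are not reported here), found by the RefSeq gene's 5′ end, plus the 5 promoters printed. The members, lists and measures were chosen with earlier results of these data known. Alternatives covered flank, window and averaging width, scaling, filter, class limits, overlapping windows, each library left out and a replicate block. Scripts were tested on simulated data.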

Additional observations from a re-analysis of the deposited data

Results flagged for a closer look

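ChIP libraries of the 2 arms moved in opposite directions from their own input, both NuMA libraries one way and both IgG libraries the other, in 9 measures. The difference between the arms was not tested, and each arm has 1 input. NuMA lay above its input and IgG below in the level within 500 positions of the TSS (changes of 0.738 and -0.240, apart by 0.978) and in summit height (0.952 and -0.255, apart by 1.21). The same held for the downstream shoulder (apart by 0.113), the upstream shoulder (apart by 0.047), the width at 50% of the summit's excess (71.5 and -359 positions, apart by 430.5) and the excess within 1000 positions (apart by 1424). The inputs themselves differed in width, with 832 positions in the NuMA arm and 908 in the IgG arm. NuMA replicate 2 (894) lay below the input of the IgG arm. In the upstream shoulder NuMA replicate 2 exceeded its own input by only 0.003, with the inputs at 1.035 and 1.031. In the promoter counts, the share in high-CpG promoters rose from input by 8.36 percentage points in NuMA ChIP and changed by -9.55 with IgG, apart by 17.9. The share in low-CpG promoters changed by -8.74 and 9.67, apart by -18.4. The mean count of high-CpG over low-CpG windows changed by 1.23 and -0.548, apart by 1.78. The ratio of signal downstream over upstream was looked at too and did not move in opposite directions. It changed from own input by 0.166 and 0.128 with NuMA antibody and by 0.108 and 0.000709 with IgG. Several of the 9 measures overlap in what they measure, so they are not separate results. Groups here hold 2 libraries or 1, too few for a check of single outlying libraries.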

How the results depend on the processing

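Of 173 alternative values for the 18 profile and CpG-class differences, 170 kept the direction, and the ratio of the outer flanks (-0.001) reversed in 3, to 0.020 over the outermost 1000 positions, 0.000736 without NuMA replicate 1 and 0.011 without IgG replicate 1. Its range with a library left out was -0.014 to 0.011. The cause was not tested. Many of the 170 could not have reversed. Where the ChIP groups did not overlap, leaving out a library or pairing by replicate number cannot change the direction. The choice of flank does not alter the summit position, the downstream over upstream ratio, the dip or the fine structure. Higher and lower windows numbered 1634 and 2117 in DESeq2 (high CpG 861 and 53, intermediate 205 and 119, low 26 and 978), and 7562 and 429 on flank scaling (3924 and 9, 1293 and 23, 342 and 239). Total-count scaling left 33 low-CpG windows higher. With a library left out, higher and lower windows ranged from 596 to 2875 and 1445 to 2906 over all windows, 325 to 1505 and 21 to 130 for high, 70 to 419 and 57 to 218 for intermediate, and 10 to 80 and 685 to 1255 for low CpG. GAPDH (0.91) and COL1A1 (0.15) reversed on flank scaling.

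Replicate numbers are not known to pair NuMA and IgG libraries: replicate 1 minus replicate 2 correlated at r = 0.179 between groups, across windows, which are not independent. With a replicate block in edgeR there were 3445 higher and 4162 lower windows, and 98 low-CpG windows higher. For 2 pairs the exact sign-flip permutation test of the profile measures cannot go below p = 0.5, which it gave for the mean log2 ratio of the share in high-CpG promoters (0.46).

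With 2 libraries per ChIP group and 1 per input, the exact permutation test of the profile measures could not pass at any size of difference. Matching only RefSeq starts within 100 bases, added after the data were seen, gave a difference in the share of counts in high-CpG promoters of 18.6 percentage points, against 17.4.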

Other observations

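Around transcription termination sites, scaled in the same way, the level within 500 positions was 0.961 and 0.995 with NuMA antibody, 1.068 and 1.025 with IgG, 1.023 in input of the NuMA arm and 1.017 in that of the IgG arm. The TSS level exceeded it by 1.35 and 0.911 with NuMA antibody, 0.225 and 0.017 with IgG, and 0.347 and 0.391 in input of the NuMA and IgG arms.

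The motif CCAAT, a promoter element bound by NF-Y, stood in 33.8% of high-CpG, 41.9% of intermediate and 37.8% of low-CpG promoters (either strand, 34.7% of all RefSeq promoters). Mean counts in windows with it were 0.7496 and 0.784 times those without it in NuMA ChIP, 0.857 and 0.919 with IgG, and 0.932 and 0.907 in input of the NuMA and IgG arms. Within the high class the ratios were 0.799 and 0.815 with NuMA antibody and 0.866 and 0.887 with IgG (exact permutation p = 0.333).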
